A study of Homo sapiens with 5 samples.

Results

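ERα peaks found on the autosomes of E2-treated VCaP cells were compared between cells that overexpress the receptor (VCaP ERα + E2) and the parental line (VCaP + E2). Peaks on chromosomes 1 to 12 and 14 to 22 were taken, which are 21 autosomes, and those on chromosomes 13, X and Y were left out. This rule kept 458 of the 1833 VCaP ERα + E2 peaks (25.0%) and 1377 of the 2505 VCaP + E2 peaks (55.0%), together 1835 of the 6565 peaks deposited for the series. VCaP is an established line of prostate cancer. Parental cells, at passage 3 to 4, were deprived of hormone for 48 h and given 10 nM of 17β-oestradiol (E2) for 14 h. VCaP ERα cells are the same line with stable overexpression of ERα and were at passage 10 to 12. They were also given E2, but the labels state neither its dose and time nor a hormone deprivation for them, nor whether the line is 1 clone. No vector control was profiled, and the level of ERα itself cannot be read from peak lists. Both libraries were immunoprecipitated with the same ERα antibody. Each list came from 1 library, parental cells on a Genome Analyzer II and VCaP ERα cells on a HiSeq 2000, so that receptor level, passage and sequencer cannot be told apart and no difference between the conditions was tested. Lists of VCaP cells without E2 (HiSeq 2000, 89 peaks on these chromosomes) and of NCI-H660 cells, a neuroendocrine prostate cancer line, with E2 (Genome Analyzer II, 1693 peaks) served as a comparison.

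ERα is a nuclear receptor that is activated by oestrogen. It binds DNA directly at oestrogen response elements, often far from the start of the gene it controls, or through other factors that are already on the chromatin. In breast cancer cells its sites lie largely in distal enhancers. A peak in ChIP-seq is a stretch of the genome where immunoprecipitated fragments piled up, and a list of peaks gives the places but, here, neither the height nor the score of a site. The number of reads behind a list is unknown. Positions are in hg18 and are printed counted from 1. Genes next to the peaks and the sequence under them are not analysed here, since an annotation and a genome of that build are needed.

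On the chromosomes used, the lists held different places. Of the 458 autosomal peaks of VCaP ERα + E2, 4 overlapped a VCaP + E2 peak by at least 1 bp (0.873%, exact binomial 95% interval 0.238 to 2.22%), and these were 4 of the 1377 parental peaks (0.290%, interval 0.0792 to 0.742%). On the chromosomes used, the parental list was 3.01 times as long and covered 342 kb against 95.3 kb. Over all chromosomes the deposited lists were closer in length, with 2505 parental and 1833 VCaP ERα + E2 peaks. Overlap was not examined on the chromosomes left out, which held most of the 1833 VCaP ERα + E2 peaks. The shares of overlapping peaks therefore hold for the chromosomes used and not for the whole deposited lists. All intervals here cover counting error only, and are too narrow where peaks lie in groups.

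The shared places were on chromosomes 17, 5, 22 and 1. On chromosome 17 the VCaP ERα + E2 peak ran over chr17:59347712-59348455 (744 bp) and lay wholly inside the parental peak at chr17:59347664-59348494 (831 bp). Their midpoints were 4.5 bp apart, the closest match of the 4. On chromosome 5 the peaks at chr5:159282459-159283120 (662 bp) and chr5:159282590-159283249 (660 bp) had 531 bp in common. A second VCaP ERα + E2 peak of 321 bp, chr5:159283295-159283615, began 46 bp past the end of that parental peak. At both places the lists had peaks of like width, several times wider than the median of their list.

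The other shared places paired a wider VCaP ERα + E2 peak with a narrow parental one. On chromosome 22, chr22:18377818-18378319 (502 bp) contained the parental chr22:18378049-18378217 (169 bp). On chromosome 1, chr1:153180580-153180907 (328 bp) contained chr1:153180601-153180725 (125 bp). Ranked by width among the 458 VCaP ERα + E2 peaks, the shared peaks stood at 4 (chromosome 17), 7 (chromosome 5), 13 (chromosome 22) and 43 (chromosome 1), while in the parental list they stood at 29, 61, 772 and 1269 of 1377. A wider peak meets another list more easily. None of the 4 shared places overlapped a peak of VCaP without E2 or of NCI-H660 + E2.

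A further 9 VCaP ERα + E2 peaks came within 1 kb of a parental peak without touching it, at distances of 46 to 800 bp. Of these, 4 lay in the dense stretch of chromosome 1 described below, 2 on chromosome 22 and 1 each on chromosomes 5, 9 and 19. The median distance from a VCaP ERα + E2 peak to the nearest parental peak was 263 kb, and 27.7% (127 of 458, interval 23.7 to 32.1%) had one within 100 kb. NCI-H660 + E2, a list of another cell line, was no farther away, with a median of 208 kb and 34.3% (157 of 458, interval 29.9 to 38.8%) within 100 kb. That list was longer than the parental one, with 1693 peaks against 1377, and such distances depend on list length. Seen from the parental list, 7.99% (110 of 1377, interval 6.61 to 9.55%) had a VCaP ERα + E2 peak within 100 kb. VCaP ERα + E2 peaks fell in 154 windows of 1 Mb and parental peaks in 854. Both were in 100 windows, which is 64.9% of the former and 11.7% of the latter. NCI-H660 + E2 peaks fell in 797 windows, of which 111 also held a VCaP ERα + E2 peak. For VCaP without E2 this was 25 of 59 windows. These numbers, too, depend on list length.

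Sharing with the comparison lists was uneven. The parental list shared 690 of 1377 peaks with NCI-H660 + E2 (50.1%, interval 47.4 to 52.8%), the other list made on a Genome Analyzer II, and 16 with VCaP without E2 (1.16%, interval 0.666 to 1.88%). VCaP ERα + E2 shared 2 of 458 peaks with NCI-H660 + E2 (0.437%, interval 0.0529 to 1.57%), both on chromosome 21, and 15 with VCaP without E2 (3.28%, interval 1.84 to 5.34%), the other HiSeq 2000 list. Those 15 comprised 8 on chromosome 22, 2 on chromosome 14 and 1 each on chromosomes 1, 9, 15, 19 and 21. In all, 21 of the 458 VCaP ERα + E2 peaks overlapped a peak of any other list. The parental and NCI-H660 + E2 libraries also had the same E2 dose, time and hormone deprivation. Since each sequencer held 1 library of any group, the parts of sequencer, treatment and cells in these shares cannot be told apart.

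**Figure D1:**
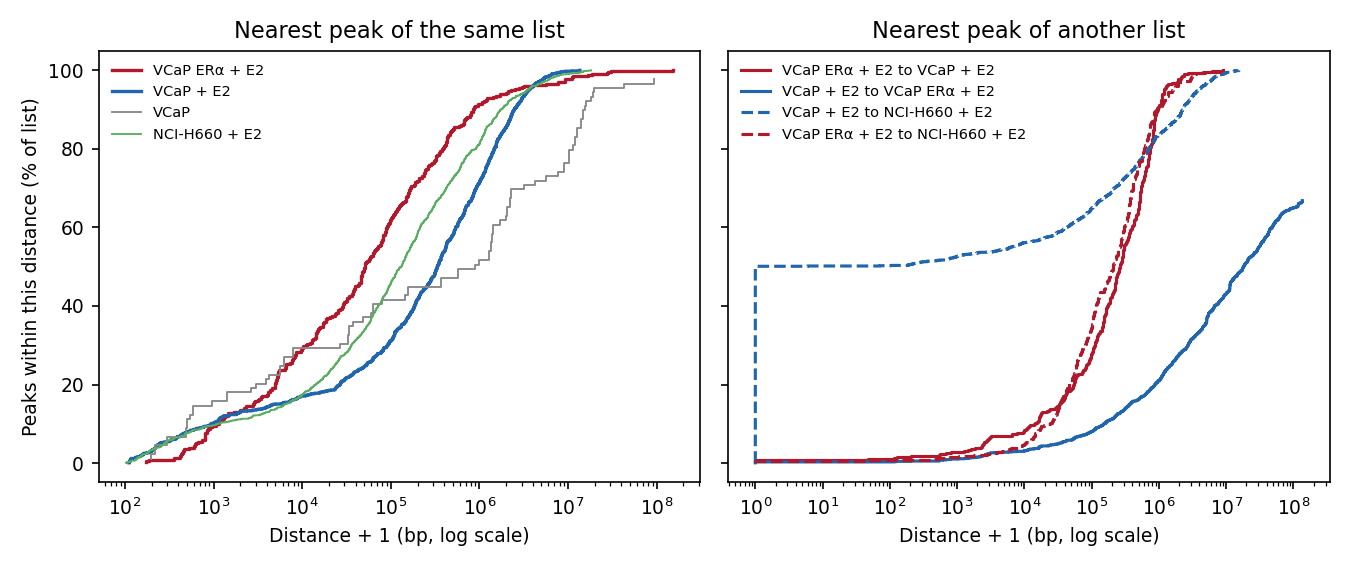
Share of each list's peaks (vertical axis, %) with a neighbour within a given distance (horizontal axis, bp plus 1, log scale). Left, the nearest peak of the same list: VCaP ERα + E2 and VCaP + E2 start alike, with 9.39% and 10.2% at 1 kb, and part to 61.8% and 31.1% at 100 kb. Right, the nearest peak of another list: VCaP + E2 against NCI-H660 + E2 starts at 50.1%, the share that overlap, while VCaP ERα + E2 starts under 1% against both lists. Lines end below 100% where some chromosomes hold no peak to measure to, or where a peak is alone on its chromosome.

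The lists also differed in the chromosomes they occupied. VCaP ERα + E2 had 176 peaks on chromosome 22 (38.4%, interval 34.0 to 43.1%), where VCaP + E2 had 57 (4.14%, interval 3.15 to 5.33%). This share was not particular to the overexpressing cells, since VCaP without E2 had 30 of its 89 peaks there (33.7%, interval 24.0 to 44.5%), while NCI-H660 + E2 had 55 of 1693 (3.25%). VCaP ERα + E2 had 49 on chromosome 21 (10.7%, against 4.43% in the parental list), 46 on chromosome 15 (10.0% against 4.21%), 45 on chromosome 19 (9.83% against 6.10%) and 42 on chromosome 1 (9.17% against 11.0%). These 5 chromosomes were picked as those with the most VCaP ERα + E2 peaks, so a high share in that list is built in. They held 358 of its 458 peaks (78.2%, interval 74.1 to 81.9%) and 412 of the 1377 parental peaks (29.9%, interval 27.5 to 32.4%). The intervals do not allow for that choice. On chromosomes 21 and 15 VCaP ERα + E2 had the higher share but fewer peaks, 49 against 61 and 46 against 58. Shares of a list add up to 100%, so chromosomes without a peak raise the share of the others. These are shares of the peaks used, which were 25.0% of the deposited VCaP ERα + E2 list and 55.0% of the parental one. Over the whole deposited lists each share would be lower, and more so in VCaP ERα + E2. No difference in shares was tested. Chromosome 22 was the only one of the 21 on which VCaP ERα + E2 had more peaks than the parental list. In VCaP without E2 these 5 chromosomes held 59.6% (53 of 89, interval 48.6 to 69.8%) and in NCI-H660 + E2 41.5% (702 of 1693).

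No VCaP ERα + E2 peak was found on chromosomes 2, 3, 4, 7, 10, 12 and 20. This leaves room for up to 0.655% of the 458 peaks used on each of them. As a share of the 1833 deposited peaks that limit would be lower. The parental list had 457 of its 1377 peaks on these 7 chromosomes (33.2%, interval 30.7 to 35.7%), from 32 on chromosome 12 to 95 on chromosome 2. NCI-H660 + E2 had 360 of 1693 there (21.3%), and VCaP without E2 had 1 of 89 (1.12%, interval 0.0284 to 6.10%), on chromosome 10. Of the 7 chromosomes, 6 were thus empty in VCaP without E2 too, a list with no peak on 9 of the 21. Its other empty chromosomes were 8, 17 and 18, where VCaP ERα + E2 had 2, 5 and 7 peaks. With 89 peaks on the chromosomes used, a count of 0 leaves room for up to 3.37% of them on a chromosome. No chromosome was empty in VCaP + E2 or NCI-H660 + E2. The 7 chromosomes, whose lengths were not considered, hold 6323 of 18788 protein-coding genes of the 21 autosomes (33.7%) in the RefSeq table of GRCh38.p14. Chromosome 22 has 451 of these genes and chromosome 19 has 1451, so that VCaP ERα + E2 had 39.0 peaks per 100 protein-coding genes on chromosome 22 and 3.10 on chromosome 19. The parental values were 12.6 and 5.79.

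**Figure D2:**
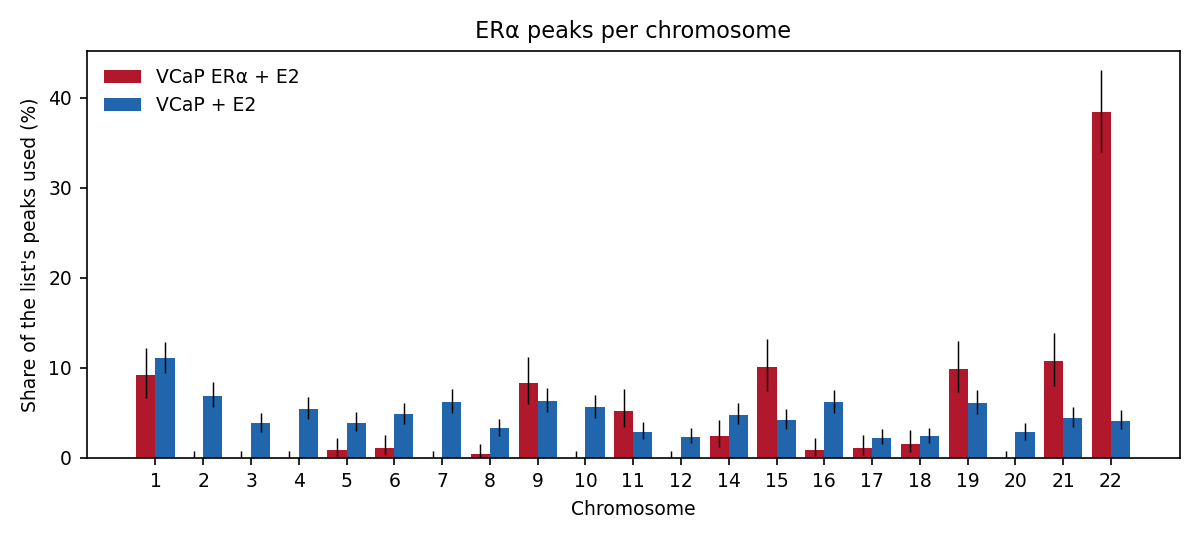
Share of the autosomal peaks of each list (vertical axis, %) on each chromosome used (horizontal axis), for VCaP ERα + E2 (red, 458 peaks) and VCaP + E2 (blue, 1377 peaks). Bars start at 0 and lines give exact binomial 95% intervals. Chromosome 22 holds 38.4% of VCaP ERα + E2 and 4.14% of VCaP + E2, and 7 chromosomes have no red bar. VCaP without E2, which is not drawn, had 33.7% of its 89 peaks on chromosome 22.

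Within several chromosomes the VCaP ERα + E2 peaks kept to a part. All 24 peaks of chromosome 11 lay in 3683 kb (chr11:63114263-66797526), with widths of 102 to 320 bp. The 40 parental peaks of that chromosome were spread over 133 Mb, and 3 lay in the same stretch. The 5 peaks of chromosome 6 lay in 23.1 Mb, where 7 of 67 parental peaks lay, and the 2 of chromosome 8 were 7.76 Mb apart from end to end. On chromosome 1, 17 peaks lay between 1466199 and 51545450, 24 in the dense stretch and 1 beyond it, at chr1:181259694-181259879. The parental list had 86, 28 and 38 peaks before, inside and after that stretch. On chromosomes 9, 14, 15, 19 and 22, by contrast, VCaP ERα + E2 peaks were spread over 117, 82.7, 61.6, 60.4 and 33.2 Mb. Chromosomes 5, 16 and 17 had as few peaks as chromosome 6 or fewer (4, 4 and 5), and these were spread over 170, 54.8 and 34.9 Mb.

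The narrowest extent was on chromosome 18. Its 7 VCaP ERα + E2 peaks lay within 11.4 kb, chr18:42796529-42807972, and covered 43.1% of it. They were 185, 323, 120, 2205, 220, 1369 and 515 bp wide in order of position. The peaks of 2205 bp (chr18:42800031-42802235) and 1369 bp (chr18:42805651-42807019) were the widest of the list and its only ones of at least 1000 bp. No peak of VCaP + E2, VCaP without E2 or NCI-H660 + E2 lay in that stretch, although the parental list had 33 peaks elsewhere on the chromosome. This stretch was singled out after its values were seen.

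Peaks of VCaP ERα + E2 stood closer together than parental ones. The median distance to the nearest peak of the same list was 50.8 kb (quartiles 6.79 and 260 kb) in VCaP ERα + E2 and 335 kb (quartiles 53.6 and 1177 kb) in VCaP + E2, although the parental list was the longer. Another peak of the same list lay within 100 kb for 61.8% of VCaP ERα + E2 peaks (283 of 458, interval 57.2 to 66.3%) and 31.1% of parental peaks (428 of 1377, interval 28.6 to 33.6%). In NCI-H660 + E2 this share was 45.8% (775 of 1693) and in VCaP without E2 41.6% (37 of 89, interval 31.2 to 52.5%). At 1 kb the shares in VCaP ERα + E2 and VCaP + E2 were 9.39% (interval 6.88 to 12.4%) and 10.2% (interval 8.62 to 11.9%), which overlap. VCaP ERα + E2 peaks were closer together than parental ones on chromosome 22 and off it. On chromosome 22 the median distance was 24.6 kb against 104 kb, and on the remaining chromosomes it was 106 kb against 351 kb. The remaining chromosomes include the 7 without a VCaP ERα + E2 peak, where 457 of the parental peaks lay, so these medians cover unlike chromosomes. By 1-Mb windows, 21 of the 154 occupied windows held 50% of the VCaP ERα + E2 peaks, and 207 of 854 held 50% of the parental ones.

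Runs were formed of neighbouring peaks with gaps of up to 100 kb. In VCaP ERα + E2, 12 runs of at least 5 peaks took up 131 peaks (28.6%, interval 24.5 to 33.0%), and in VCaP + E2 13 such runs took up 143 (10.4%, interval 8.82 to 12.1%). VCaP without E2 had 33 of 89 peaks in 5 such runs (37.1%, interval 27.1 to 48.0%), and NCI-H660 + E2 had 256 of 1693 in 27 (15.1%, interval 13.4 to 16.9%), so that runs of this kind were not particular to VCaP ERα + E2 either. Ranked by number of peaks, 4 of the 5 longest VCaP ERα + E2 runs were on chromosome 22. They were chr22:19754798-20070205 with 25 peaks, chr22:17117471-17398378 with 17, chr22:18837851-19202860 with 14 and chr22:18488165-18731395 with 9. Together these runs held 65 VCaP ERα + E2 peaks, 2 parental peaks, 8 peaks of VCaP without E2 and 0 of NCI-H660 + E2. A shorter run on the same chromosome, chr22:29607902-29668261, was looked at after its values were seen. It had 7 VCaP ERα + E2 peaks, of which 6 overlapped a peak of VCaP without E2, a list with 8 peaks there, and neither VCaP + E2 nor NCI-H660 + E2 had any.

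The longest parental runs lay elsewhere, with 1 exception. The run at chr2:132728278-132755548 had 21 peaks and covered 33.0% of its 27.3 kb. The next were chr16:33772635-33873227 with 16 peaks, and chr10:41675500-41718729 and chr21:10107348-10208646 with 13 each. VCaP ERα + E2 had no peak in any of these 4 runs. NCI-H660 + E2 had 10, 9, 6 and 5 peaks in them, in that order, and VCaP without E2 had 0, 0, 1 and 1. Neither the sequence nor the input was examined at these runs. Whether they are sites of ERα or places where reads pile up without it was not tested. The parental run at chr6:152170609-152461925, the sixth by number of peaks, had 9 peaks of 317 to 716 bp. VCaP without E2 had 7 peaks there, NCI-H660 + E2 had 5 and VCaP ERα + E2 had 0.

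The exception was a stretch of chromosome 1 that was dense in both lists. It was the longest parental run (chr1:152950996-153204767, 30 peaks) and the second longest of VCaP ERα + E2 (chr1:153018911-153263138, 24 peaks). VCaP without E2 had no peak there and NCI-H660 + E2 had 1, of 99 bp. In the 186 kb common to both runs there were 20 VCaP ERα + E2 and 28 parental peaks, and 1 pair overlapped. The other peaks of the lists were interleaved. The median distance from a VCaP ERα + E2 peak to the nearest parental peak was 2.39 kb, the longest was 11.1 kb, and 4 lay within 1 kb without overlap. VCaP ERα + E2 peaks were the wider here, with a median of 270.5 bp (100 to 577 bp) against 142 bp (100 to 458 bp). They covered 3.08% of the common part and parental peaks 2.32%.

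**Figure D3:**
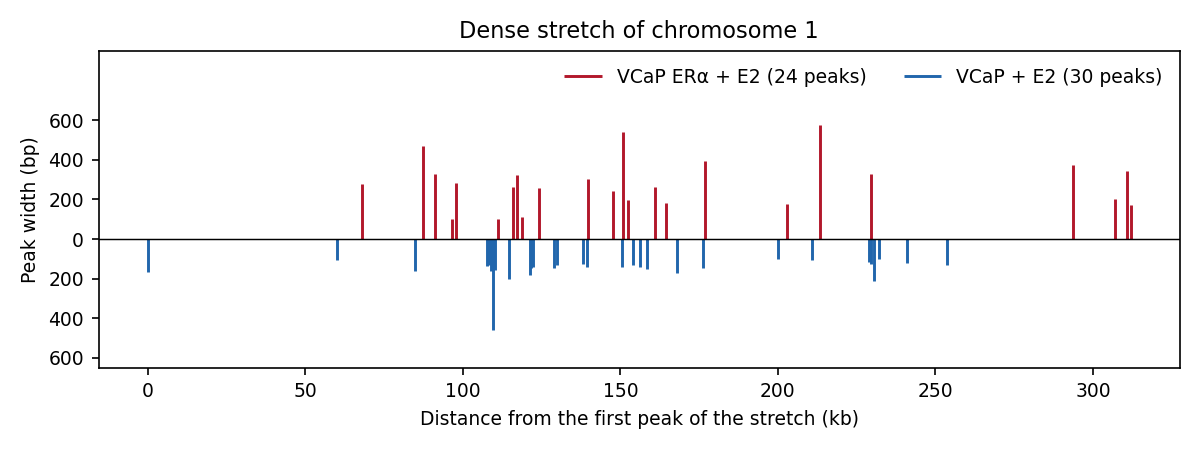
Peaks of the dense stretch of chromosome 1, by distance in kb from its first peak (horizontal axis). Line height gives the peak width in bp, upward for VCaP ERα + E2 (red, 24 peaks) and downward for VCaP + E2 (blue, 30 peaks). The lists interleave, and 1 pair of peaks overlaps.

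Median peak widths were close, and the shapes of the width distributions were not. The median was 168 bp in VCaP ERα + E2 (quartiles 134 and 240 bp) and 171 bp in VCaP + E2 (quartiles 157 and 299 bp). The narrowest peak was 99 bp in both. Parental widths gathered in narrow bands, which were picked out after the values were seen. Widths of 160 to 180 bp made up 28.8% of the parental list (396 of 1377, interval 26.4 to 31.2%) and 14.6% of VCaP ERα + E2 (67 of 458, interval 11.5 to 18.2%). Widths of 290 to 320 bp made up 11.8% (163 peaks, interval 10.2 to 13.7%) and 4.15% (19 peaks, interval 2.52 to 6.40%). In NCI-H660 + E2 the bands held 22.1% and 5.14%, and in VCaP without E2 11.2% and 6.74%. Peaks of at least 500 bp were 6.83% of the parental list (94 peaks, interval 5.55 to 8.29%) and 3.06% of VCaP ERα + E2 (14 peaks, interval 1.68 to 5.08%).

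**Figure D4:**
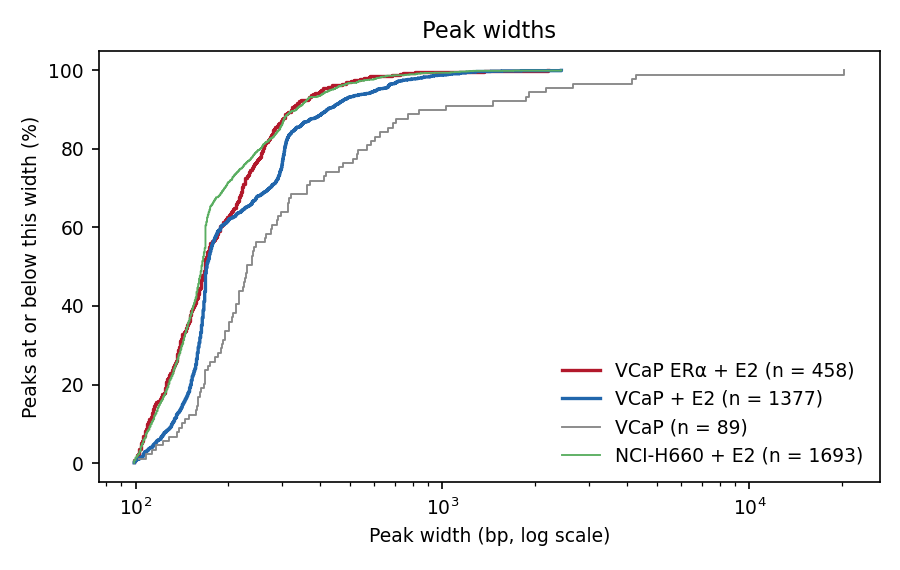
Share of peaks at or below a given width (vertical axis, %) against width (horizontal axis, bp, log scale) in the 4 lists. The medians of VCaP ERα + E2 (168 bp) and VCaP + E2 (171 bp) nearly meet, and the VCaP + E2 line climbs steeply from 160 to 180 bp and again from 290 to 320 bp.

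Among the peaks used, the widest of each list had little in common. After the pair on chromosome 18, the widest of VCaP ERα + E2 were chr22:19939795-19940605 (811 bp), the shared peak of chromosome 17 (744 bp) and chr22:17188872-17189596 (725 bp). Of these 5, the one on chromosome 17 was in the parental list, and none was in VCaP without E2 or in NCI-H660 + E2. The 5 widest parental peaks were chr6:58884763-58887202 (2440 bp), chr19:55693570-55695375 (1806 bp), chr1:121185526-121187085 (1560 bp), chr19:34198004-34199440 (1437 bp) and chr19:3260944-3262230 (1287 bp). Each of them overlapped a peak of NCI-H660 + E2, those on chromosomes 6 and 1 also overlapped VCaP without E2, and none overlapped VCaP ERα + E2. Sequence and input were not examined here either, so whether these widest peaks are sites of ERα was not tested.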

How the data were processed

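The authors deposited 1 peak list per ChIP library, with chromosome, start and end in bp and no count, height, score or p-value. The submitters' processing notes name hg18 and CASAVA 1.8, and the study names ChIPSeeqer as peak caller. Its threshold, the aligner, the treatment of duplicates and the use of the input are not given in the sources used here. A deeper library or a looser threshold gives more and wider peaks, and regions of high copy number can appear as peaks where input is not subtracted. The input library was not analysed here. Starts of 0 occur, so starts were read as counted from 0.

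Groups came from the labels. Peaks on chromosomes 1 to 12 and 14 to 22 were kept, and number, width, distance, runs and overlap of at least 1 bp were computed. Shares carry exact (Clopper-Pearson) 95% intervals, and 0 peaks was read as at most 3 peaks of the list. Peaks named are those shared, the 5 widest and the 5 longest runs of each list, and any other was picked with its values in view. The choice of chromosomes and measures was made with earlier results of these data known. Interval functions were checked on simulated data. RefSeq gene numbers (GRCh38.p14) were used per chromosome only. Python 3.11.15, numpy 2.4.6, scipy 1.17.1 and matplotlib 3.10.9 were used.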

Additional observations from a re-analysis of the deposited data

How the results depend on the processing

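Omission of chromosome 22 was chosen after the results were seen, except for widths. The 4 shared peaks, from either list, stayed 4 when 50% of the shorter peak had to overlap and were 3 without chromosome 22. They became 13 with midpoints within 1000 bp, 7 with peaks of 500 bp and 2 with the wider 50% of each list. The number of peaks became 229 (VCaP ERα + E2) and 689 (VCaP + E2) with the wider 50%, by construction, and VCaP ERα + E2 had 282 without chromosome 22, while merging within 1000 bp left 435 and 1293. The share of peaks with another within 100 kb was higher in VCaP ERα + E2 under each setting run. With 50 kb it was 48.9% against 24.5%, with 200 kb 71.8% against 41.6%, after merging 58.9% against 24.8%, and without chromosome 22 48.9% against 30.4%. The share on chromosome 22 was 37.5% and 4.41% after merging, and median widths without chromosome 22 were 167 and 171 bp. No paired analysis was possible because neither condition had a second library, and no replicate could be left out. Alternatives for genes, promoters and motifs were not run, since those results need hg18 sequence or annotation. Unknown read numbers limit any comparison of list lengths. The number of peaks limits what a missing chromosome shows, and the limit given is a share of the 458 peaks used, not of the 1833 deposited.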
